A study of Mus musculus with 15 samples.

Results

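Of the 24015 genes counted in the inguinal fat of C57BL/6 mice, 113 were at least 2-fold higher at 12 months than at 2 months of age both under vehicle and under CL. They were chosen on CPM, the read count of a gene scaled to the total of its library. A gene had to reach a mean of 5 CPM in at least 1 of the 4 groups, which 12479 genes did. The ratio of the aged to the young mean had to be at least 2 in each treatment, and every aged library had to lie above every young library of the same treatment. Another 3 genes that met these terms carry only a gene model name and were left out. The age differences of the members are therefore the terms of their choice, and they are given below as a description with no test. The difference between CL and vehicle was not itself a term of the choice, and it was tested in the same libraries. Both of its sides are group levels that the terms used, so the calls of members with CL are not independent of the choice. For CL at 12 months the choice bears directly on 13 members that reached 5 CPM in a single aged group. These are 8 in Old_CL (Adam3, Chrna5, Cnn1, Dusp9, Fam217a, Fhod3, Hspb7 and Lipf) and 5 in Old_Ctrl. The term favoured that group. Counts over all members hold these 13, but their calls at 12 months are not read as results.

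The polyA RNA came from inguinal adipose tissue of mice aged 2 months (Young) or 12 months (Old). All 4 groups, controls included, had been kept at thermoneutrality for 2 weeks and then received 5 days of intraperitoneal injections, of vehicle (Ctrl) or of CL. The name CL is spelled out in the labels as cardiolipin. A β-adrenergic agonist commonly goes by the same abbreviation, and the identity of the injected compound was not resolved here. Young_Ctrl, Young_CL and Old_CL have n = 4 libraries, numbered 1 to 4, and Old_Ctrl has n = 3, numbered 1, 3 and 4, since its replicate 2 was not analysed here. Values of a group are listed in the order of these numbers. Nothing in the labels ties the libraries to separate animals, and p-values therefore measure only the spread between these samples, which may be technical.

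Inguinal fat is a subcutaneous depot made of adipocytes, vessels, fibroblast-like progenitors and immune cells, and it holds a lymph node. Macrophages in fat take up lipid from adipocytes, and those loaded with lipid are known for a set of lysosomal and lipid-handling genes that includes the receptor gene Trem2. Collagen cross-linking, matricellular proteins and proteoglycans shape the matrix around adipocytes, and contractile proteins mark vessel walls and cells that contract that matrix. Bulk RNA does not tell more cells of a type from more RNA per cell, and the values below carry both.

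Total counts ran from 6115542 to 51577001 per library, so that 3 counts equal 0.0582 to 0.491 CPM. Skeletal muscle transcripts (20 markers, 0 of them members) were uneven. Their summed level was 3163 to 5697 CPM in Young_CL 1, 2 and 3, 10475 in Old_Ctrl 3 and 3880 in Old_CL 3, against 129 to 579 in the other 10 libraries. The summed level of 19 macrophage markers, 2 of them members, was 2273 to 2993 CPM in Young_Ctrl, 1122 to 2387 in Young_CL, 3218 to 5884 in Old_Ctrl and 1766 to 2439 in Old_CL. Over the members, Old_CL 1, 2 and 4 were closer to each other than other libraries of a group. The median absolute log2 ratio was 0.0790 to 0.164 in their 3 pairs and 0.252 to 0.639 in the 18 other pairs.

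The members were spread over 20 chromosomes, with 112 protein-coding genes and 1 long non-coding RNA in RefSeq. The table of RefSeq promoters on GRCm38.p6 held 85 of the 113, and 8 motifs were searched on both strands in the 250 bases before each start. The letters GAGGAAG, the core of sites bound by the myeloid factor PU.1, were present in 13 of the 85 members (15.3%) and in 10.4% of all 27025 promoters. Among the 14 promoters of immune and phagocyte members they were found in 5, those of Trem2, Spp1, Cd300a, Tlr13 and Sdc1. The first 4 of these are printed to show where the letters lie. They lie at chr17:48346151-48346400, chr5:104434861-104435110, chr11:114889791-114890040 and chrX:106143025-106143274, all on the + strand of GRCm38.p6, while the reads had been counted on mm9. Each runs 5′ to 3′ and ends at the base before the start, and capitals mark GAGGAAG or its reverse complement.
Trem2: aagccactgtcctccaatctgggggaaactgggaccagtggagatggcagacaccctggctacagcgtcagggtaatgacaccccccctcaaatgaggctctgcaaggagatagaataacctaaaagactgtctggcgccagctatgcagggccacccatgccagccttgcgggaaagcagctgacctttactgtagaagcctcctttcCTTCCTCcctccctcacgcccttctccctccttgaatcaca
Spp1: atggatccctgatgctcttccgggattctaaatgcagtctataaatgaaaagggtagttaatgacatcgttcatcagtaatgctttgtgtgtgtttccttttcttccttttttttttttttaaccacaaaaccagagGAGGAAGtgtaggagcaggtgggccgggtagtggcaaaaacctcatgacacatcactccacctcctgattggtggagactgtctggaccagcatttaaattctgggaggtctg
Cd300a: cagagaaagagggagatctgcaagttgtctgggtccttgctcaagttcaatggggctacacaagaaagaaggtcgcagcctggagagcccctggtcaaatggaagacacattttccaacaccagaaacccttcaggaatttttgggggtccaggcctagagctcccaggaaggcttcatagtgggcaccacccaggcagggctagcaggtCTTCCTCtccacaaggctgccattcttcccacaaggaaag
Tlr13: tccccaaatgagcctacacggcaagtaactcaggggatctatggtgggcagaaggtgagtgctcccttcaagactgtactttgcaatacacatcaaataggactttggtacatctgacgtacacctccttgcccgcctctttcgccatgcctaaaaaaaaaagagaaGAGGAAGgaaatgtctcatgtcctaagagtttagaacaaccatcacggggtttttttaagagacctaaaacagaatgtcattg
The match lies close to the start in Trem2 and Cd300a, farther upstream in Tlr13 and Spp1. The E-box CACGTG was present in 7 of the 85 (6.05% of all promoters), TGACTCA, the AP-1 letters, in 4 (4.43%), TATAAA in 8 (12.97%) and TGACGTCA, the CRE letters, in 1 (1.62%). The CArG box of smooth muscle genes was found in 1, Rnf128 (1.40% of all promoters). TCATGTGA, the M-box letters of the factor MITF, and the DR1 repeat of nuclear receptors were found in 0 of the 85, against 0.836% and 0.0370% of all promoters. These are letter matches in short windows and say nothing on binding.

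The median age ratio of the members was 2.95 under vehicle (2.00 to 94.5, 112 genes with a young level above 0) and 3.25 under CL (2.01 to 35.5, 113 genes). Both age terms together were strict. Of the 12479 genes at 5 CPM or more, 2.12% met the ratio and the separation of libraries under vehicle and 3.73% under CL. The ratio was larger under vehicle in 50 members and under CL in 63, and it differed by 2-fold or more in 13 and 17 of them. Just inside the terms stood Tspan11, a tetraspanin, with a highest group mean of 5.02 CPM, Acer2, an alkaline ceramidase, with a vehicle ratio of 2.00, and Slc6a8, the creatine transporter, with a CL ratio of 2.01. Just outside stood Tm4sf19 at 4.89 CPM, Pck1 at a vehicle ratio of 1.97 and Olfm2 at a CL ratio of 1.99. In Gp49a the lowest aged vehicle library was 1.02 times the highest young one, and Cidec missed at 0.985. For CL the same quotient was 1.04 in Tspan11 and 0.955 in Fam46b, which missed. The choice also rests on single libraries. With each library left out in turn, 65 of the 113 met the terms in all 15 cases.

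**Figure D1:**
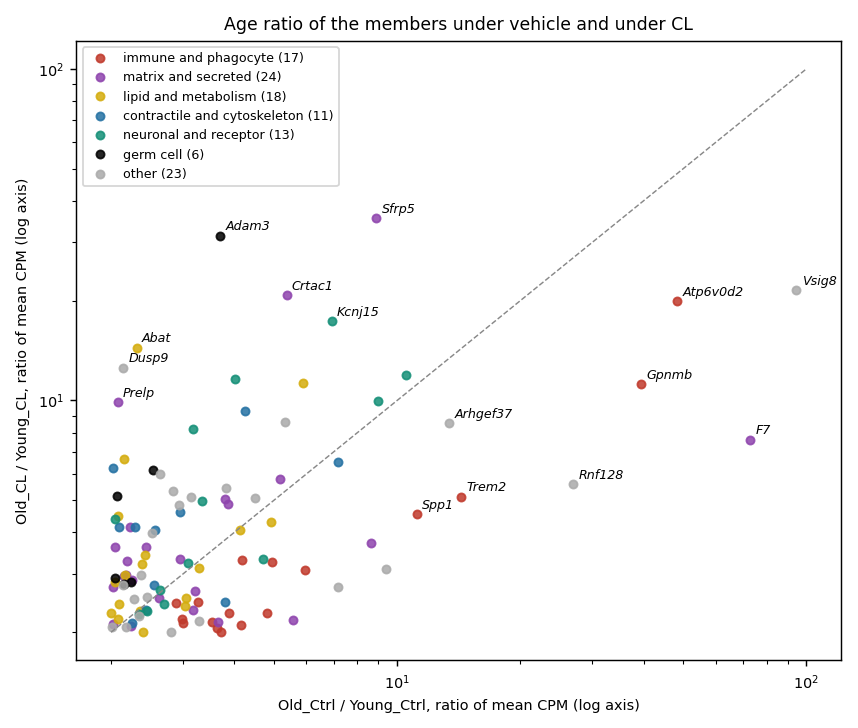
Ratio of mean CPM at 12 months to that at 2 months for 112 members, under vehicle (horizontal, log axis) and under CL (vertical, log axis), coloured by role, with the line of equal ratios. Lipf, listed at 0 in every Young_Ctrl library, is not drawn. All 17 immune and phagocyte genes lie below the line, with larger ratios under vehicle, and all 6 germ cell genes lie above it. Both ratios are terms of the choice, and Adam3 and Fam217a of the germ cell genes reached 5 CPM in Old_CL alone.

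By known function, assigned after the members were seen, 17 are immune and phagocyte genes, 24 encode matrix or secreted proteins, 19 act in lipid or other metabolism and 11 in contraction or the cytoskeleton. Another 13 are neuronal or receptor genes, 6 are germ cell genes and 23 belong to none of these. The age ratio was larger under vehicle in 17 of 17 immune members, 8 of 24 matrix, 8 of 18 metabolic, 4 of 11 contractile, 4 of 13 neuronal, 0 of 6 germ cell and 9 of 23 other members. Both ratios are terms of the choice, so these counts are a description and not a test. They hold members that reached 5 CPM in a single aged group. Adam3 and Fam217a (germ cell), Cnn1, Fhod3 and Hspb7 (contractile) and Chrna5 (neuronal) did so in Old_CL. Lhfpl4, Pcp4l1 and Slc6a7 (neuronal) did so in Old_Ctrl. In 105 members every Old_CL library also lay above every Young_Ctrl library, which was so in 16.8% of the 12479 genes. The terms had used the levels of both groups, so this comparison with all genes is a description and not a test. The Old_CL mean lay below the Young_Ctrl mean in 1 member, Cd163l1, a scavenger receptor gene.

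The response of the members to CL was tested with the quasi-likelihood test of edgeR on 15288 genes, with Benjamini-Hochberg adjustment, and changes with CL are given as log2 change ± SE. A gene rose or fell where the adjusted p was under 0.05. At 2 months 16 members rose and 14 fell, 14.2% and 12.4% of the 113, while 21.7% of all genes tested rose and 22.1% fell. At 12 months 33 passed as higher and 12 as lower, against 23.1% and 22.2% of all genes tested. Of the 33, 6 had reached 5 CPM in Old_CL alone. The terms had used the same group levels, so the shares of members beside those of all genes are a description and not a test. Among the 100 members at 5 CPM in 2 or more groups, 27 rose and 12 fell, and the median change was 0.14 on the log2 scale. The median log2 change of the members was -0.05 at 2 months and 0.14 at 12 months (all genes tested, -0.07 and -0.01). At both ages 14 members passed as higher and 4 as lower. Abat, Acta2, Adam3 and Prelp passed as lower at 2 months and as higher at 12 months, and 60 members passed at neither age. These counts hold the calls at 12 months of Adam3, Fam217a, Fhod3, Hspb7 and Lipf, which are part of the choice and are not read as results. Whether the responses differed between the ages was not tested, because that difference is made of the age ratios that chose the members. The count of falls at 12 months rests on Old_Ctrl 3: without it 33 members fell and 26 rose (18.9% of all genes tested in each direction). Without Old_Ctrl 4 it was 7 falls, and with the close libraries Old_CL 1, 2 and 4 summed to 1 it was 4. Without the 5 muscle-rich libraries, which leaves 1 Young_CL library, the falls at 2 months of Cd163l1 (-1.24, adjusted p = 0.0753), Prelp (-1.14, 0.109), Timp4 (-0.69, 0.279) and Adam3 (-2.84, 0.144) no longer passed. Leaving out a single library ended the call of 8 of the 30 members called at 2 months and of 20 of the 45 called at 12 months. Adam3 and Cnn1, which had reached 5 CPM in Old_CL alone, are among the 20. A count of 0 rises or 0 falls given below from all 15 libraries was also 0 at an unadjusted p under 0.05 in edgeR and by limma-voom and DESeq2, unless other counts are given.

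**Figure D2:**
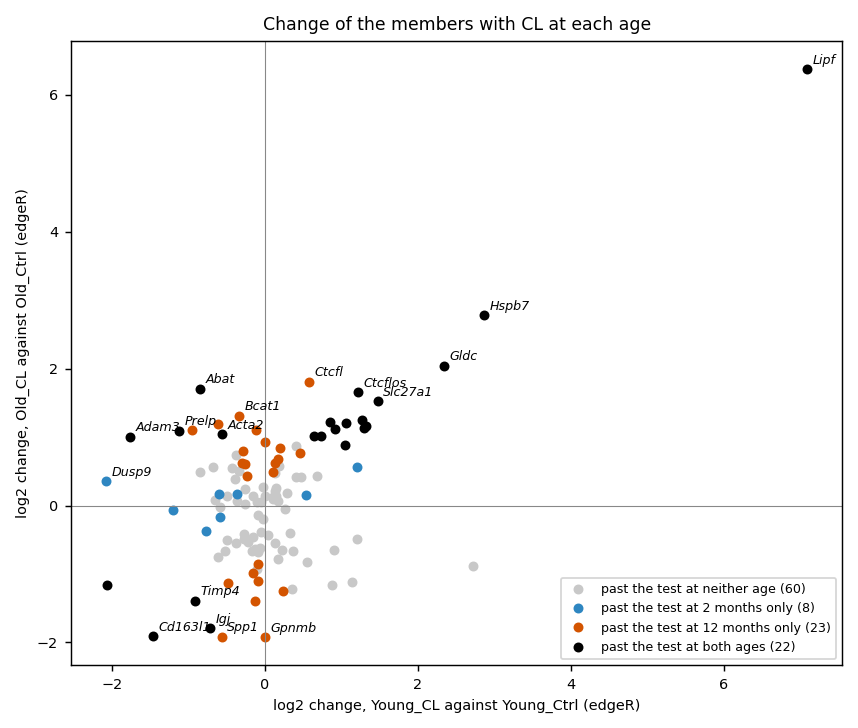
log2 change with CL at 2 months (horizontal) and at 12 months (vertical) for the 113 members, from edgeR, coloured by the ages at which the adjusted p was under 0.05. Lipf, Gldc, Hspb7 and Slc27a1 lie at the upper right, and Abat, Acta2, Adam3 and Prelp at the upper left. Adam3, Hspb7 and Lipf are among the members that reached 5 CPM in a single aged group, whose call at 12 months is part of the choice.

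The 17 immune and phagocyte members had age ratios of 2.88 to 48.2 under vehicle (median 4.14) and of 2.01 to 19.9 under CL (median 2.45). Gpnmb, which encodes a membrane glycoprotein of lipid-laden macrophages, stood at 16.8, 18.8, 15.6 and 17.4 CPM in Young_Ctrl and 13.2, 17.03, 13.7 and 11.4 in Young_CL, then at 746, 101.5 and 1183 in Old_Ctrl and at 146, 151, 174 and 149 in Old_CL. Its aged levels lay far above the young ones, but Old_Ctrl 3 was several times lower than the other aged vehicle libraries and below all 4 Old_CL libraries. The mean was 17.2 ± 1.31 CPM in Young_Ctrl and 13.8 ± 2.36 in Young_CL, then 677 ± 544 in Old_Ctrl and, last, 155 ± 13.1 in Old_CL (SD, n = 4, 4, 3 and 4), and the age ratio 39.5 under vehicle and 11.2 under CL. Trem2, the lipid-sensing receptor of macrophages, stood at 4.10, 6.19, 5.87 and 6.22 CPM in Young_Ctrl and 7.74, 6.65, 6.87 and 1.68 in Young_CL, then at 88.1, 9.95 and 143 in Old_Ctrl and at 25.1, 24.4, 45.01 and 23.2 in Old_CL. The same library, Old_Ctrl 3, was the lowest aged one, and it lay close to the young level. Atp6v0d2, a subunit of the vacuolar proton pump in macrophages and osteoclasts, was at 1.27, 1.12, 0.919 and 1.42 CPM in Young_Ctrl and 1.47, 1.03, 1.31 and 1.75 in Young_CL, then at 63.4, 3.74 and 104 in Old_Ctrl and at 22.1, 22.1, 44.3 and 22.2 in Old_CL. Its age ratio was 48.2 under vehicle and 19.9 under CL. Spp1, which encodes osteopontin, was at 4.25, 6.40, 5.73 and 6.96 CPM in Young_Ctrl and 3.17, 3.43, 4.41 and 2.21 in Young_CL, then at 68.2, 8.53 and 119 in Old_Ctrl and at 18.3, 10.9, 15.2 and 15.5 in Old_CL, with ratios of 11.2 under vehicle and 4.53 under CL. Lgals3, the gene of galectin-3, a lectin secreted by macrophages, was at 112, 88.9, 69.3 and 80.8 CPM in Young_Ctrl and 106, 96.04, 86.3 and 80.2 in Young_CL, then at 674, 123 and 775 in Old_Ctrl and at 223, 248, 444 and 218 in Old_CL. All 5 shared the order of libraries, with Old_Ctrl 4 highest and Old_Ctrl 1 next.

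**Figure D3:**
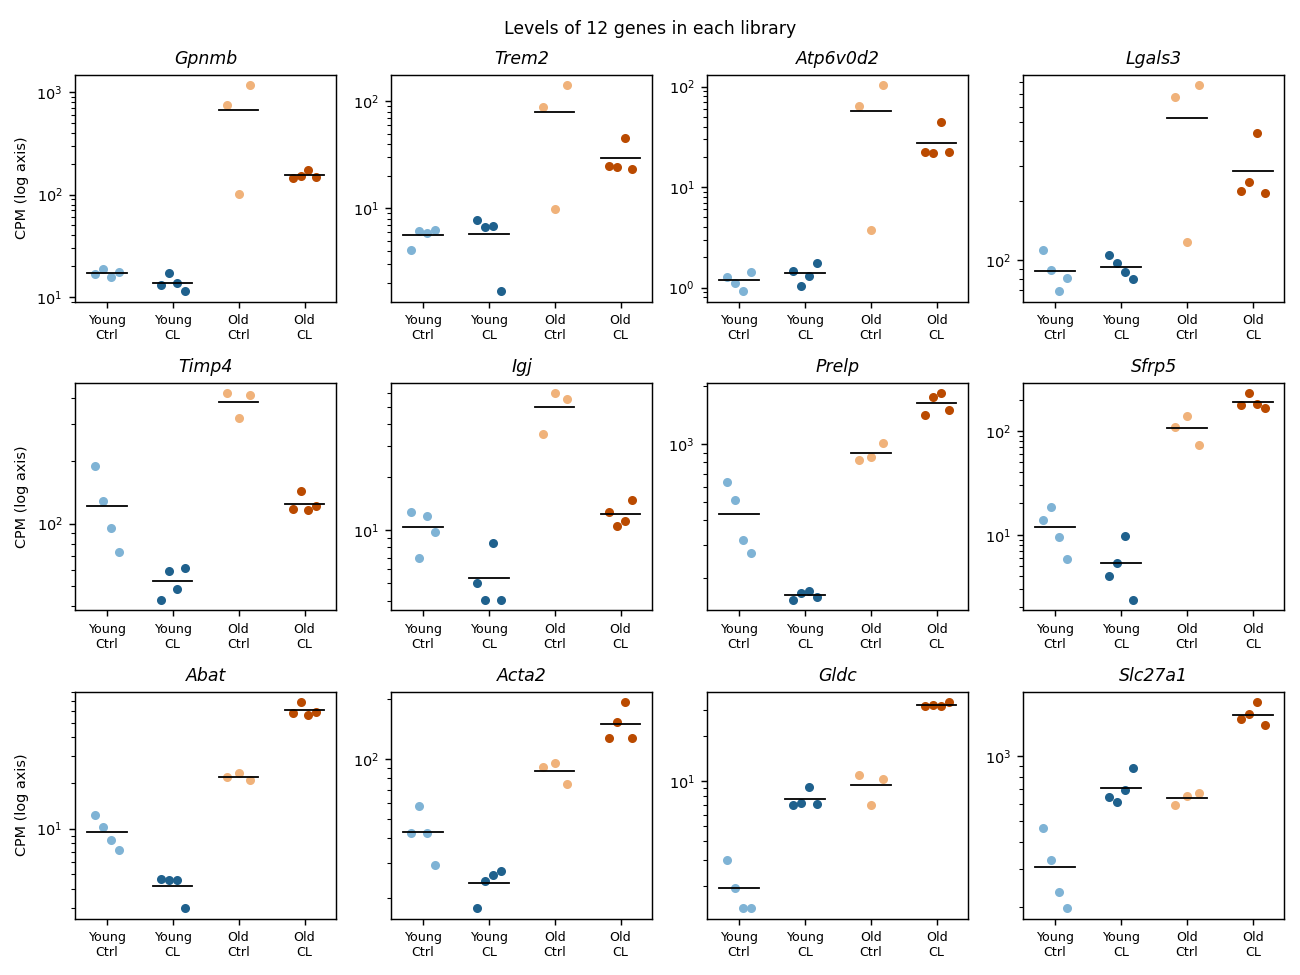
CPM (log axis) of 12 members in each library of the 4 groups, with a bar at each group mean. Old_Ctrl 3 lies well below the other Old_Ctrl libraries in Gpnmb, Trem2, Atp6v0d2 and Lgals3, whereas in Timp4, Prelp and Abat the 3 Old_Ctrl libraries lie close together.

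The general macrophage genes were high in the same libraries. Cd68, a lysosomal glycoprotein gene, was at 43.02, 61.1, 41.2 and 54.2 CPM in Young_Ctrl and 43.5, 38.1, 48.6 and 20.7 in Young_CL, then at 285, 66.4 and 229.6 in Old_Ctrl and at 66.97, 75.7, 131 and 70.03 in Old_CL, and Emr1, which encodes F4/80, at 31.3, 35.6, 31.6 and 41.6 CPM in Young_Ctrl and 43.1, 34.3, 36.3 and 13.3 in Young_CL, then at 172, 49.98 and 168 in Old_Ctrl and at 56.2, 61.97, 84.2 and 52.6 in Old_CL. In both, Old_Ctrl 3 lay closer to the young libraries than to the other aged vehicle ones. Ctsl, a lysosomal cysteine protease, was at 318, 271, 233 and 236 CPM in Young_Ctrl and 205, 206, 217 and 146 in Young_CL, then at 847, 332 and 1104 in Old_Ctrl and at 411, 457, 586 and 441 in Old_CL. Slc11a1, a metal transporter of phagosomes, Tlr8 and Tlr13, endosomal receptors of microbial RNA, and Cd300a, an inhibitory receptor, had vehicle ratios of 2.97, 3.64, 4.14 and 4.94 and CL ratios of 2.19, 2.06, 2.10 and 3.25. Gp49a, at 3.26 under vehicle and 2.46 under CL, encodes an immunoglobulin-like receptor with a near-identical copy, and its count is uncertain. Sdc1, a heparan sulfate proteoglycan of plasma cells and epithelia, stood at 15.4, 17.7, 12.2 and 12.3 CPM in Young_Ctrl and 10.4, 11.7, 11.1 and 11.05 in Young_CL, then at 52.3, 18.3 and 58.6 in Old_Ctrl and at 22.6, 21.8, 29.97 and 20.4 in Old_CL.

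A smaller group of immune members did not share that order. Igj, the joining chain of secreted immunoglobulins, was at 12.7, 7.01, 12.1 and 9.80 CPM in Young_Ctrl and 4.996, 4.05, 8.50 and 4.04 in Young_CL, then at 34.9, 59.5 and 55.4 in Old_Ctrl and at 12.7, 10.6, 11.2 and 14.9 in Old_CL, with Old_Ctrl 3 the highest library. Cd163l1 stood at 4.67, 13.8, 8.34 and 10.3 CPM in Young_Ctrl and 2.68, 2.93, 1.64 and 3.20 in Young_CL, then at 32.2, 60.6 and 23.4 in Old_Ctrl and at 9.29, 8.13, 8.52 and 8.56 in Old_CL, and there too Old_Ctrl 3 was the highest. Tpsb2, a mast cell tryptase with close copies, was at 75.9, 51.5 and 40.7 CPM in Old_Ctrl and had age ratios of 3.52 under vehicle and 2.14 under CL. Over all 17, the median level relative to the Young_Ctrl mean was 4.92 in Old_Ctrl 1, 1.75 in Old_Ctrl 3 and 4.79 in Old_Ctrl 4. In the Old_CL libraries it was 1.66, 1.73, 2.40 and 1.63. Old_Ctrl 3 was the lowest of its group in 14 of the 17. Old_CL 3 was the highest of its group in 13, and Young_CL 4 the lowest of its group in 13. Old_Ctrl 3 is the library with the most skeletal muscle RNA and with the lowest summed macrophage level of its group, and the part of either in these values was not tested.

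**Figure D4:**
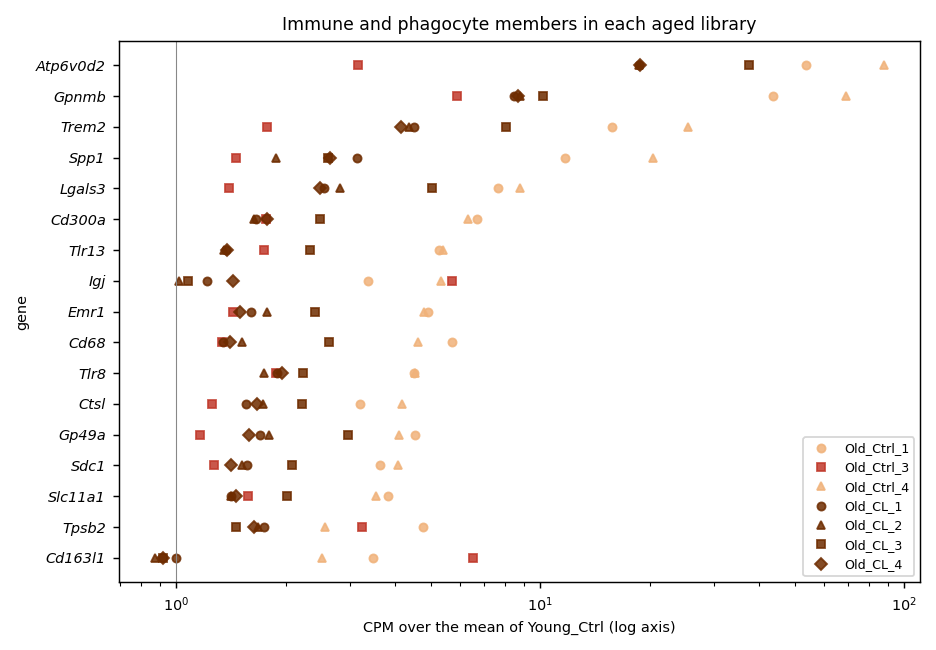
CPM of the 17 immune and phagocyte members in each of the 7 aged libraries, divided by the mean of Young_Ctrl (log axis). Old_Ctrl 1 and 4 lie to the right in most rows, and Old_Ctrl 3 (red squares) lies among or left of the Old_CL libraries except in Igj, Tpsb2 and Cd163l1.

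With CL at 12 months, 7 of the 17 immune members fell and 0 rose, and all 17 estimates were below 0 (median log2 change -0.85). At 2 months 2 fell and 0 rose, with a median of -0.09. Of all genes tested, 22.2% fell and 23.1% rose at 12 months, and 22.1% fell and 21.7% rose at 2 months. The fall at 12 months was not particular to the members. Of 17 general macrophage markers that are not members, 13 fell and 0 rose (median -1.21), with 10 falls by limma-voom. Of 15 monocyte, dendritic and granulocyte genes 12 fell and 1 rose, and of 20 T and NK cell genes 18 fell and 0 rose. Of 15 lipid-associated macrophage genes that are not members, 4 fell and 5 rose. Gpnmb fell at 12 months by 1.92 on the log2 scale (SE 0.51, adjusted p = 0.00871), while at 2 months its change was -0.00 ± 0.53 and did not pass. Spp1 fell at 12 months (-1.92 ± 0.57, adjusted p = 0.0150). Both calls were lost without Old_Ctrl 4 (Gpnmb -1.15, adjusted p = 0.0709, and Spp1 -1.01, adjusted p = 0.134). They were also lost with Old_CL 1, 2 and 4 summed (adjusted p = 0.0671 and 0.0779) and with the 2 groups fitted alone (0.0878 and 0.119), and that of Spp1 with limma-voom (0.169). Igj fell at both ages (-0.72 ± 0.25, adjusted p = 0.0309 at 2 months and -1.79 ± 0.24, adjusted p = 6.29e-05 at 12 months), and so did Cd163l1 (-1.47 ± 0.30, adjusted p = 0.00133 and -1.91 ± 0.28, adjusted p = 0.000120). Tlr13, Cd300a and Tpsb2 fell at 12 months by 1.11, 1.14 and 0.85 on the log2 scale. Those calls were lost without Old_Ctrl 1 (adjusted p = 0.0677, 0.0682 and 0.110), and the first 2 also without Old_Ctrl 4. The call of Igj at 2 months was lost without any of 5 young libraries (adjusted p up to 0.1003). Trem2, at -1.22 ± 0.64, adjusted p = 0.138, did not pass, nor did Atp6v0d2, at -0.82 ± 0.69, adjusted p = 0.350.

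The count of immune members that fell at 12 months moved in both directions. It was 2 of 17 with Old_CL 1, 2 and 4 summed and 4 with limma-voom. Without Old_Ctrl 3, all 17 immune members fell with CL at 12 months, with a median log2 change of -1.35, beside 18.9% of all genes tested. Trem2 was then at -1.76 ± 0.36, adjusted p = 0.00239, Atp6v0d2 at -1.39 ± 0.28, adjusted p = 0.00177, Lgals3 at -1.14 ± 0.28, adjusted p = 0.00575 and Cd68 at -1.35 ± 0.29, adjusted p = 0.00311. Without the 5 muscle-rich libraries the count was again 17 of 17, beside 15.9% of all genes tested. That setting leaves 2 Old_Ctrl libraries.

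A list of 20 genes of lipid-associated macrophages puts the 5 members Trem2, Gpnmb, Spp1, Lgals3 and Atp6v0d2 beside 15 genes that did not meet the terms. Of those 15, 12 rose with age under vehicle and 8 under CL, and 0 fell, while 15.1% and 20.5% of all genes tested rose. At an unadjusted p under 0.05 the falls were 0 and 1, and DESeq2 called the same numbers. Mmp12, the macrophage elastase, was higher under vehicle (4.22 ± 0.87, adjusted p = 0.00540) and under CL (3.81 ± 0.81, adjusted p = 0.00314). Apoe, the apolipoprotein of lipid efflux, was higher by less (1.05 ± 0.19, adjusted p = 0.00184 and 0.88 ± 0.18, adjusted p = 0.00123). Ctsk, a cysteine protease, rose under vehicle (1.87 ± 0.25, adjusted p = 0.000369) and stood at 0.34 ± 0.23, adjusted p = 0.257 under CL. Plin2, a lipid droplet coat gene that adipocytes also express, did likewise (1.68 ± 0.32, adjusted p = 0.00276 and -0.26 ± 0.30, adjusted p = 0.510). Fabp4, Lpl, Cd36 and Plin2 of this list are also adipocyte genes. Of the 17 general macrophage markers that are not members, 10 rose with age under vehicle, and under CL 1 rose and 1 fell. Without the 5 muscle-rich libraries 10 of these 17 rose under CL, and without Young_CL 4, 2 rose and 6 fell.

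**Figure D5:**
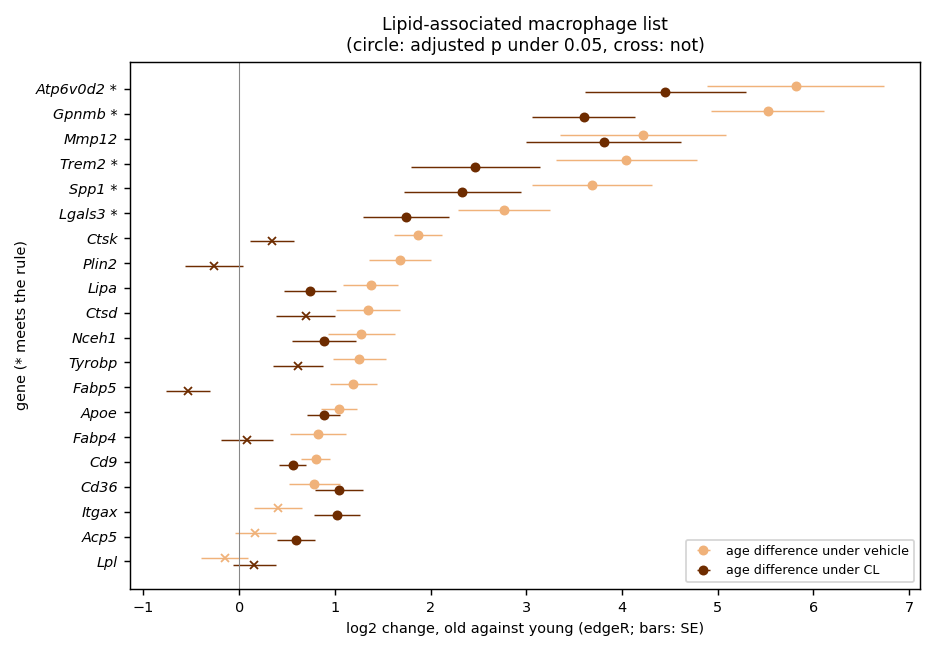
log2 change with age under vehicle (light) and under CL (dark) for the 20 genes of the lipid-associated macrophage list, from edgeR, with SE as bars. Circles passed an adjusted p of 0.05 and crosses did not, and stars mark the 5 members, whose age values are the terms of their choice.

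Among the 24 matrix and secreted members, the ratio under CL exceeded that under vehicle in 16. Thbs2, a matricellular thrombospondin, was at 50.1, 73.6, 60.6 and 63.6 CPM in Young_Ctrl and 46.6, 53.7, 46.9 and 20.6 in Young_CL, then at 248, 261 and 210.3 in Old_Ctrl and at 198, 235, 187 and 198 in Old_CL. Its aged libraries lay close together in both treatments, including the muscle-rich ones, with age ratios of 3.87 under vehicle and 4.87 under CL. Thbs1, its paralogue, was at 16.9 ± 2.41 CPM in Young_Ctrl and 10.6 ± 1.58 in Young_CL, then 37.03 ± 6.87 in Old_Ctrl and, last, 34.8 ± 2.95 in Old_CL (SD), and Lox, the enzyme that cross-links collagen, at 59.1 ± 7.86 CPM in Young_Ctrl and 39.9 ± 11.7 in Young_CL, then 144 ± 30.5 in Old_Ctrl and, last, 145 ± 10.8 in Old_CL (SD). Lox had age ratios of 2.44 under vehicle and 3.63 under CL. Vwf, the von Willebrand factor gene of endothelium, was at 38.6, 37.7, 24.4 and 19.5 CPM in Young_Ctrl and 17.1, 20.6, 23.1 and 17.1 in Young_CL, then at 66.8, 62.5 and 71.04 in Old_Ctrl and at 88.4, 85.2, 63.6 and 86.04 in Old_CL. Old_CL 3 was lowest of its group for Vwf, and still above every young library. Bgn, the proteoglycan biglycan, and Htra3, a secreted serine protease, ranked among the members with the most counts, at 451 and 523 CPM in Old_Ctrl, with vehicle ratios of 2.25 and 2.04. Fbln2, Slit3, Mgp, Mmp11 and Serpine2 had vehicle ratios of 3.22, 2.18, 2.95, 2.15 and 2.02.

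Prelp and Sfrp5 had far larger age ratios under CL than under vehicle. Prelp, a leucine-rich proteoglycan of the matrix, stood at 631, 510.2, 317 and 272 CPM in Young_Ctrl and 155, 167, 172 and 161 in Young_CL, then at 820.4, 858 and 1013 in Old_Ctrl and at 1410.4, 1754, 1825 and 1494 in Old_CL. The 4 groups did not overlap, with Young_CL lowest and Old_CL highest, and the age ratio was 2.08 under vehicle and 9.89 under CL. Prelp fell with CL at 2 months (-1.12 ± 0.24, adjusted p = 0.00160) and rose at 12 months (1.09 ± 0.26, adjusted p = 0.00346). Sfrp5, a secreted Wnt antagonist of fat, was at 13.9, 18.7, 9.55 and 5.81 CPM in Young_Ctrl and 4.05, 5.33, 9.65 and 2.36 in Young_CL, then at 108, 138 and 72.6 in Old_Ctrl and at 179.7, 229.9, 183 and 168 in Old_CL. It rose with CL at 12 months (1.10 ± 0.35, adjusted p = 0.0215), and at 2 months it was at -0.95 ± 0.38, adjusted p = 0.0574. Its age ratio was 8.88 under vehicle and 35.5 under CL. Crtac1, a cartilage matrix protein gene, had ratios of 5.37 under vehicle and 20.8 under CL and rose with CL at 12 months (1.19 ± 0.45, adjusted p = 0.0434). The call of Sfrp5 was lost without Old_Ctrl 1, Old_Ctrl 4 or Old_CL 2 (adjusted p up to 0.0812), and that of Crtac1 without any of 10 libraries (up to 0.151, without Old_Ctrl 3).

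Timp4, a metalloproteinase inhibitor abundant in fat, fell with CL at both ages. It was at 189, 128, 95.4 and 73.1 CPM in Young_Ctrl and 43.04, 59.3, 48.6 and 61.3 in Young_CL, then at 421, 319 and 413 in Old_Ctrl and at 117, 143, 116 and 121 in Old_CL. Old_CL lay within the range of Young_Ctrl, and Young_CL was lower than both. Its changes with CL were -0.91 ± 0.25, adjusted p = 0.00894 at 2 months and -1.39 ± 0.27, adjusted p = 0.000813 at 12 months. Wisp2, a secreted protein of the CCN family, was at 5.66, 7.72, 5.87 and 7.91 CPM in Young_Ctrl and 6.69, 6.08, 5.89 and 1.07 in Young_CL, then at 98.5, 29.5 and 47.99 in Old_Ctrl and at 15.3, 20.3, 22.8 and 15.1 in Old_CL, and it fell at 12 months (-1.39 ± 0.41, adjusted p = 0.0137), a call lost without Old_Ctrl 1 (-0.86, adjusted p = 0.104). Fbln7, a fibulin, fell at 12 months (-1.25 ± 0.36, adjusted p = 0.0116) and not without Old_Ctrl 4 (-0.80, adjusted p = 0.0974). F7, the gene of clotting factor VII, had a vehicle ratio of 72.8 over only 7 counts in Young_Ctrl, and stood at 11.4, 1.01 and 21.3 CPM in Old_Ctrl and at 4.71, 3.87, 8.30 and 3.82 in Old_CL.

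With CL, 1 matrix member rose and 5 fell at 2 months (4.2% and 20.8%, beside 21.7% and 22.1% of all genes tested). At 12 months 4 rose and 4 fell (16.7% each, beside 23.1% and 22.2% of all genes tested). None of these shares exceeded that of all genes. Gpc1, a membrane heparan sulfate proteoglycan, rose at both ages (0.64 ± 0.11, adjusted p = 0.000216 and 1.02 ± 0.11, adjusted p = 1.64e-05). Of 32 genes on a matrix and fibrosis list, 3 are members (Lox, Thbs1 and Thbs2). Of the other 29, 15 rose with age under vehicle and 7 under CL, with 0 falls. Of all genes tested, 15.1% rose with age under vehicle and 20.5% under CL. Ctgf, a matricellular growth factor, was higher in both (1.75 ± 0.19, adjusted p = 6.41e-05 and 0.98 ± 0.18, adjusted p = 0.000587), as was Timp3, a metalloproteinase inhibitor (1.05 ± 0.16, adjusted p = 0.000773 and 0.81 ± 0.15, adjusted p = 0.000776). Mmp14, a membrane metalloproteinase, rose under vehicle (1.20 ± 0.20, adjusted p = 0.00115) and stood at 0.04 ± 0.18, adjusted p = 0.880 under CL. Of the 29, 8 instead of 15 rose under vehicle without Old_Ctrl 1, and 9 without Old_Ctrl 4, without Young_Ctrl 4 or with the 2 groups fitted alone. With CL at 12 months 15 of the 29 fell and 3 rose (median log2 change -0.57), beside 22.2% and 23.1% of all genes tested. By limma-voom 13 fell. At 2 months 1 rose and 1 fell.

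The 19 metabolic members included genes of fatty acid entry and oxidation. Slc27a1, the fatty acid transport protein FATP1, was at 467, 329, 236 and 198 CPM in Young_Ctrl and 646, 609, 694 and 876 in Young_CL, then at 590.0, 653 and 672 in Old_Ctrl and at 1474, 1561, 1772 and 1385 in Old_CL. No aged library overlapped the young ones of its treatment, and the age ratio was 2.08 under vehicle and 2.19 under CL. It rose with CL at both ages (1.48 ± 0.24, adjusted p = 0.000212 at 2 months and 1.52 ± 0.27, adjusted p = 0.000422 at 12 months), and the ranges of Young_CL and Old_Ctrl overlapped. Cpt1a, which makes acylcarnitines for mitochondrial oxidation, fell at 2 months (-0.59 ± 0.11, adjusted p = 0.000520) and was at -0.17 ± 0.11, adjusted p = 0.223 at 12 months.

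Angptl4, an inhibitor of lipoprotein lipase, was at 223 ± 80.7 CPM in Young_Ctrl and 242 ± 133 in Young_CL, then 541 ± 40.8 in Old_Ctrl and, last, 829.8 ± 140.2 in Old_CL (SD), and its changes with CL were 0.41 ± 0.33, adjusted p = 0.340 at 2 months and 0.86 ± 0.37, adjusted p = 0.0669 at 12 months. Pltp, which transfers phospholipids between lipoproteins, was at 255, 217, 146 and 194 CPM in Young_Ctrl and 224, 224, 242 and 109.6 in Young_CL, then at 791, 342 and 724 in Old_Ctrl and at 484, 526.5, 567 and 451 in Old_CL. Old_Ctrl 3 was again the lowest aged library, as in the macrophage genes. Mgst3, a microsomal glutathione transferase, had age ratios of 2.38 under vehicle and 3.22 under CL. Ffar2, a receptor of short-chain fatty acids, had ratios of 3.04 under vehicle and 2.40 under CL and rose with CL at 2 months (0.54 ± 0.13, adjusted p = 0.00397, against 0.15 ± 0.14, adjusted p = 0.390 at 12 months).

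Several amino acid enzymes were among the members. Abat, which breaks down the transmitter GABA, was at 12.3, 10.3, 8.34 and 7.23 CPM in Young_Ctrl and 4.67, 4.59, 4.58 and 2.97 in Young_CL, then at 22.02, 23.2 and 20.9 in Old_Ctrl and at 58.3, 68.7, 56.7 and 58.97 in Old_CL. The 4 groups did not overlap, and Young_CL was lowest and Old_CL highest. Abat fell with CL at 2 months (-0.84 ± 0.18, adjusted p = 0.00171) and rose at 12 months (1.70 ± 0.17, adjusted p = 1.01e-05). Gldc, the decarboxylase of the glycine cleavage system, was at 2.97, 1.93, 1.41 and 1.42 CPM in Young_Ctrl and 6.96, 7.19, 9.16 and 7.08 in Young_CL, then at 11.1, 6.999 and 10.5 in Old_Ctrl and at 32.1, 32.7, 32.1 and 34.1 in Old_CL, and it rose at both ages (2.34 ± 0.23, adjusted p = 1.41e-06 and 2.04 ± 0.21, adjusted p = 1.03e-05). Bcat1, the cytosolic aminotransferase of branched-chain amino acids, was at 4.95, 8.02, 5.87 and 5.68 CPM in Young_Ctrl and 4.11, 4.13, 4.58 and 2.97 in Young_CL, then at 20.5, 8.61 and 10.4 in Old_Ctrl and at 24.9, 30.9, 28.01 and 21.4 in Old_CL. It rose at 12 months (1.31 ± 0.24, adjusted p = 0.000597) and was at -0.33 ± 0.25, adjusted p = 0.291 at 2 months.

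Lipf, the gene of gastric lipase, was nearly silent outside CL. It was listed at 0 in all 4 Young_Ctrl libraries, at 1.24, 0.413, 1.31 and 0.381 CPM in Young_CL, at 0.154, 0.155 and 0.137 in Old_Ctrl and at 8.65, 11.4, 13.4 and 9.59 in Old_CL. Against a floor of 3 counts over the Young_Ctrl group (0.0654 CPM), Old_Ctrl was at least 2.27-fold higher, with 13 counts in all, and Young_CL at least 12.8-fold higher, with 61. The age ratio under CL was 12.9. Lipf rose with CL at 2 months (adjusted p = 0.000134). It became a member through Old_CL alone, so its level there is given with no test. In all, 5 metabolic members rose and 3 fell at 2 months (26.3% and 15.8%, beside 21.7% and 22.1% of all genes tested). At 12 months 7 of the 18 metabolic members at 5 CPM in 2 or more groups rose and 1 fell. The shares of all genes tested were then 23.1% and 22.2%.

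Of the 11 contractile and cytoskeletal members, 4 rose with CL and 1 fell at 2 months. At 12 months 6 of the 8 at 5 CPM in 2 or more groups rose and 0 fell, and Cnn1, Fhod3 and Hspb7 had reached 5 CPM in Old_CL alone. Of all genes tested, 21.7% rose and 22.1% fell at 2 months, and 23.1% rose and 22.2% fell at 12 months. Acta2, smooth muscle actin, was at 42.5, 58.3, 42.7 and 29.4 CPM in Young_Ctrl and 17.8, 24.5, 26.2 and 27.3 in Young_CL, then at 90.8, 95.8 and 74.9 in Old_Ctrl and at 127, 152, 193 and 127 in Old_CL. It fell with CL at 2 months (-0.56 ± 0.20, adjusted p = 0.0324) and rose at 12 months (1.04 ± 0.21, adjusted p = 0.00119), and its age ratios were 2.02 under vehicle and 6.26 under CL. Leaving out any of Young_Ctrl 1, 2 and 3 or Young_CL 1 and 2 ended the call at 2 months (adjusted p up to 0.122). Cnn1, the actin-binding calponin of smooth muscle, was at 0.849, 1.12, 0.919 and 0.811 CPM in Young_Ctrl and 0.588, 0.909, 0.491 and 0.229 in Young_CL, then at 3.69, 4.32 and 3.79 in Old_Ctrl and at 5.72, 5.25, 5.12 and 4.45 in Old_CL. Its change with CL at 2 months was -0.30 ± 0.30, adjusted p = 0.565. Lmod1, the smooth muscle leiomodin, had ratios of 2.55 under vehicle and 4.06 under CL and rose at 12 months (0.84 ± 0.18, adjusted p = 0.00179). In Acta2, Cnn1 and Lmod1 every aged library lay above every young one of either treatment.

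Some markers of smooth muscle and pericytes were also higher with age. Of the 10 listed genes that are not members, 3 rose with age under vehicle and 5 under CL, and 0 fell. The shares of all genes tested that rose were 15.1% under vehicle and 20.5% under CL. Tagln, an actin-binding smooth muscle protein, was higher in both (0.76 ± 0.12, adjusted p = 0.00111 and 1.43 ± 0.12, adjusted p = 8.58e-07), as was Myh11, smooth muscle myosin (0.79 ± 0.24, adjusted p = 0.0237 and 2.00 ± 0.23, adjusted p = 1.79e-05). The summed level of the 12 markers was 478 to 848 CPM in Young_Ctrl, 508 to 659 in Young_CL, 673 to 1014 in Old_Ctrl and 992 to 1036 in Old_CL, and its part in the members' values was not tested. Of the 10, 1 instead of 3 rose under vehicle without Old_Ctrl 1, Old_Ctrl 4, Young_Ctrl 3 or Young_Ctrl 4 or with the 2 groups fitted alone. Under CL it was 3 instead of 5 without the muscle-rich libraries or with Old_CL 1, 2 and 4 summed.

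Other members of this group are known from striated muscle. Hspb7, a small heat shock protein of heart and skeletal muscle, was at 1.13, 0.406, 0.283 and 0.473 CPM in Young_Ctrl and 3.07, 2.07, 8.83 and 0.229 in Young_CL, then at 4.62, 2.71 and 4.99 in Old_Ctrl and at 16.2, 23.2, 37.1 and 16.2 in Old_CL. In Young_CL it was high in the muscle-rich libraries 1, 2 and 3, while library 4 lay below every Young_Ctrl library. Of the aged muscle-rich libraries, Old_CL 3 was the highest of its group and Old_Ctrl 3 the lowest of its group. The part of muscle RNA in these values was not tested. Hspb7 rose with CL at 2 months (2.87 ± 0.84, adjusted p = 0.0139), but without the 5 muscle-rich libraries, which leaves 1 Young_CL library, the change was -0.83. Leaving out Young_Ctrl 3 or 4 also ended the call (adjusted p = 0.0511 and 0.0524). At 12 months every Old_CL library lay above every Old_Ctrl library. Hspb7 had reached 5 CPM in Old_CL alone, so that separation is part of the choice and is not read as a result. Fhod3, a sarcomere formin, and Rtn2, a reticulon of muscle counted among the other members, rose at 2 months (1.26 ± 0.30, adjusted p = 0.00329 and 1.29 ± 0.37, adjusted p = 0.0113), and lost the call without the muscle-rich libraries (0.82 and 0.11, adjusted p = 0.166 and 0.822). Mical2, an actin-oxidising enzyme, was at 10.2, 11.2, 4.67 and 6.01 CPM in Young_Ctrl and 15.3, 16.1, 16.02 and 16.1 in Young_CL. It rose at both ages (1.32 ± 0.25, adjusted p = 0.000734 and 1.16 ± 0.25, adjusted p = 0.00186).

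The 13 neuronal and receptor members were mostly low in CPM, with Old_Ctrl means of 4.68 to 39.5, and 0 changed with CL at 2 months in edgeR (1 at an unadjusted p under 0.05, 1 by limma-voom, 0 by DESeq2). At 12 months 2 of the 9 at 5 CPM in 2 or more groups rose and 0 fell in edgeR, with 1 fall at an unadjusted p, 1 by limma-voom and 1 by DESeq2. Shares of all genes tested were 21.7% for rises and 22.1% for falls at 2 months, and 23.1% and 22.2% at 12 months. Kcnj15, an inward-rectifier potassium channel, was at 9.62, 3.15, 4.53 and 3.65 CPM in Young_Ctrl and 3.92, 2.81, 5.23 and 3.58 in Young_CL, then at 29.6, 23.7 and 55.4 in Old_Ctrl and at 58.5, 73.5, 75.9 and 61.2 in Old_CL, and it rose at 12 months (1.10 ± 0.34, adjusted p = 0.0159). Its Young_Ctrl and Young_CL libraries overlapped, and its age ratio was 6.92 under vehicle and 17.3 under CL. Ric3, a chaperone of nicotinic receptors, rose at 12 months (0.62 ± 0.22, adjusted p = 0.0327). Both calls were lost without Old_Ctrl 1 or without Old_Ctrl 3 (Kcnj15, adjusted p = 0.0652 and 0.0667, and Ric3, adjusted p = 0.0765 and 0.107), and that of Ric3 also without Old_CL 1, 2 or 4. Chrna5, a nicotinic receptor subunit, had age ratios of 4.01 under vehicle and 11.6 under CL and Syp, the synaptic vesicle protein synaptophysin, of 3.09 under vehicle and 3.23 under CL. Mrgprg, a receptor of the Mas-related family, was at 7.36, 0.406, 0.566 and 1.08 CPM in Young_Ctrl and 1.502, 1.49, 1.64 and 0.305 in Young_CL, then at 9.08, 31.7 and 33.5 in Old_Ctrl and at 12.1, 16.1, 18.4 and 12.3 in Old_CL, with Young_Ctrl 1 far above the rest of its group. Slc6a7, the proline transporter of neurons, was at 0.991, 1.02, 0.283 and 0.270 CPM in Young_Ctrl and 0.196, 0.289, 0.491 and 0.990 in Young_CL, then at 8.47, 3.16 and 5.57 in Old_Ctrl and at 5.85, 5.58, 3.03 and 5.14 in Old_CL. Its young levels rest on few counts, and its age ratio was 8.96 under vehicle and 9.97 under CL.

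Of the 6 germ cell members, 2 rose and 1 fell with CL at 2 months, beside 21.7% and 22.1% of all genes tested. At 12 months 2 of the 4 at 5 CPM in 2 or more groups rose and 0 fell, beside 23.1% and 22.2%. Ctcfl, the testis paralogue of the insulator protein CTCF, was at 11.3, 10.5, 5.23 and 5.14 CPM in Young_Ctrl and 7.67, 7.65, 10.3 and 12.95 in Young_CL, then at 15.1, 19.1 and 15.7 in Old_Ctrl and at 55.7, 51.8, 33.9 and 57.5 in Old_CL. It rose at 12 months (1.81 ± 0.28, adjusted p = 0.000200) and was at 0.58 ± 0.28, adjusted p = 0.108 at 2 months. Ctcflos, the long non-coding RNA beside it, was at 27.2, 25.2, 14.8 and 11.6 CPM in Young_Ctrl and 30.8, 29.6, 42.2 and 45.5 in Young_CL, then at 38.6, 36.9 and 44.9 in Old_Ctrl and at 124, 109.7, 72.9 and 125 in Old_CL and rose at both ages (1.21 ± 0.27, adjusted p = 0.00235 and 1.66 ± 0.29, adjusted p = 0.000425). They were the only neighbouring pair among the members. Strand use in the counting is not given in the sources used here, so reads of overlapping transcripts from the pair cannot be told apart. Adam3, a sperm surface protein gene, was at 1.13, 1.02, 0.778 and 0.270 CPM in Young_Ctrl and 0.196, 0.207, 0.164 and 0.0762 in Young_CL, then at 2.77, 4.38 and 1.71 in Old_Ctrl and at 3.69, 6.80, 4.52 and 5.14 in Old_CL. It fell at 2 months (-1.77 ± 0.53, adjusted p = 0.0141), with 13 counts in all of Young_CL. Adam3 and Fam217a had reached 5 CPM in Old_CL alone. The age ratio of Adam3 was 3.70 under vehicle and 31.4 under CL.

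The remaining 23 members have varied functions. Fkbp5, the co-chaperone of the glucocorticoid receptor, was at 112, 157, 119 and 117 CPM in Young_Ctrl and 77.9, 124, 131 and 121 in Young_CL, then at 215, 316 and 393 in Old_Ctrl and at 271, 328, 286 and 271 in Old_CL, and its changes with CL were 0.14 ± 0.19, adjusted p = 0.572 and 0.13 ± 0.21, adjusted p = 0.615. Vsig8, an immunoglobulin-domain protein, had the largest vehicle ratio of the members, 94.5, but only 7 counts in Young_Ctrl. It was at 0.142, 0.203, 0.0707 and 0.203 CPM in Young_Ctrl and 0.327, 0.124, 0.491 and 0.0762 in Young_CL, then at 18.3, 0.776 and 24.7 in Old_Ctrl and at 4.77, 4.42, 8.65 and 4.06 in Old_CL. As in Gpnmb, Old_Ctrl 4 and 1 were its highest and Old_Ctrl 3 its lowest aged library. The same held for F7 and for Rnf128, an E3 ubiquitin ligase, at 15.5, 2.21 and 23.8 CPM in Old_Ctrl and at 4.52, 4.75, 7.90 and 4.45 in Old_CL. Arhgef37, a guanine nucleotide exchange factor, was at 0.708, 0.812, 1.20 and 1.01 CPM in Young_Ctrl and 1.70, 1.53, 2.13 and 2.06 in Young_CL, then at 13.1, 6.57 and 17.9 in Old_Ctrl and at 16.2, 18.5, 13.1 and 15.6 in Old_CL, and rose with CL at 2 months (1.21 ± 0.35, adjusted p = 0.0117). Dusp9, a phosphatase of MAP kinases, was at 2.26, 3.05, 2.12 and 1.42 CPM in Young_Ctrl and 0.588, 0.248, 0.491 and 0.305 in Young_CL, then at 4.77, 5.10 and 4.34 in Old_Ctrl and at 4.26, 5.47, 5.19 and 5.53 in Old_CL. Young_CL lay below every other library, and Dusp9 fell at 2 months (-2.08 ± 0.30, adjusted p = 6.64e-05). Zfyve28, an endosomal regulator of growth factor receptors, also fell at 2 months (-1.20 ± 0.32, adjusted p = 0.00707), a call lost without the muscle-rich libraries (-0.91, adjusted p = 0.211). Cystm1, Lhfpl2 and Rtn2 rose at both ages, and Adap2, Adcy5 and Map3k6 rose at 12 months. Leaving out a single library ended the calls of Adap2, Adcy5, Map3k6 and Rtn2 at 12 months and of Cystm1 and Lhfpl2 at 2 months.

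The listed genes of other cell types moved in different directions with age. Of 20 T and NK cell genes 0 are members, and 12 fell with age under vehicle and 20 under CL. Of 14 B cell and lymph node genes 0 are members, and 11 and 13 fell. Of 11 MHC class II genes 5 and 10 fell. Background shares with age were 12.2% under vehicle and 19.4% under CL for falls, and 15.1% and 20.5% for rises. With CL at 12 months the background share of rises was 23.1%. Igj and Sdc1 are the 2 members among 10 plasma cell genes, and of the other 8, 1 rose and 2 fell in each treatment. The adipocyte identity list has 0 members among 21, with 5 rises and 0 falls under vehicle and 12 and 0 under CL. Of 16 thermogenic genes 0 are members, and 6 fell with age under vehicle and 14 under CL. Of 10 erythrocyte genes 0 are members, and 4 rose with age under vehicle, 10 under CL and 7 with CL at 12 months, with 0 falls. Of 18 adipocyte progenitor genes 0 are members, with 8 rises and 1 fall under vehicle and 2 and 4 under CL. Vwf is the member among 15 endothelial genes, and of the other 14, 4 rose under vehicle and 6 under CL, with 0 falls. The vehicle counts moved with single libraries. The rises of erythrocyte genes were 8 without Old_Ctrl 1 and 2 without Old_Ctrl 3, those of progenitor genes 3 without Old_Ctrl 4, 4 without Young_Ctrl 4 and 5 without Old_Ctrl 1 or Young_Ctrl 3, and those of the 14 endothelial genes 0 without Old_Ctrl 4, 1 without Old_Ctrl 3, Young_Ctrl 3 or Young_Ctrl 4 and 8 without Young_Ctrl 1. Under CL, without Young_CL 4, 8 progenitor genes fell, and without the 5 muscle-rich libraries 7 rose, beside 2 endothelial rises. The part of these cell types in the members' values was not tested. Of 19 senescence genes 0 are members, with 6 rises and 4 falls under vehicle and 4 and 3 under CL.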

How the data were processed

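PolyA RNA of inguinal adipose tissue from 15 samples in 4 groups was sequenced by the submitters. STAR, featureCounts of Subread and the build mm9 are named for alignment and gene counting, per the submitters' processing notes. Versions, the annotation and the use of strand are not given in the sources used here. The authors deposited 1 table of whole-number counts for 24015 genes and 15 libraries, and these counts as deposited were used. Levels are CPM of the library total, computed here.

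Tests used edgeR 4.0.16 in R 4.3.3. Genes were kept with filterByExpr by group (15288 genes, all 113 members among them), scaled by TMM and fitted with the robust quasi-likelihood F test, with 1 mean per group over all 15 libraries. P-values were adjusted over all genes tested by Benjamini-Hochberg, and called under 0.05. Contrasts were CL against vehicle at each age, for the members, and age in each treatment, for genes of the lists only. Each SE was taken as |log2 change| divided by √F. The alternatives tried were DESeq2 1.42.0, limma-voom (limma 3.58.1), upper-quartile and RLE factors, other low-count filters, the 2 groups alone, the replicate number as a block, each library left out, the 5 muscle-rich libraries left out, and Old_CL 1, 2 and 4 summed.

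The members, the gene lists and the alternatives were chosen with earlier results of these data known, and the roles after the members were seen. Genes named with values are the 12 with the highest mean CPM, the 10 with the largest lesser age ratio, the 8 with the largest rise and the 8 with the largest fall with CL among those called at each age, members on a fixed list, and genes at the thresholds. Others are named by symbol, ratio or call to describe a role, chosen after their values were seen. Another of the members is in every count but is not reported here by name. In simulated data of the same group sizes, CL at 2 months recovered 75% of genes changed 2-fold and 89% changed 4-fold (15103 genes, 5.75% of calls unchanged). CL at 12 months recovered 72% and 93% (15106 genes, 4.07%). Same-numbered libraries did not deviate together in every pair (r across genes of -0.24 to 0.34), and the numbers were not taken as pairs. Such correlations cannot exclude a pairing or batch by number, and the replicate number was tried as a block. Precision is set by counting at low CPM, where 3 counts equal 0.0582 to 0.491 CPM, and by the spread between libraries elsewhere. Promoter sequences are from RefSeq on GRCm38.p6, and no coordinate of the mm9 counts was used.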

Additional observations from a re-analysis of the deposited data

Results flagged for a closer look

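Of 143 groups of libraries of the named members tested for a stray library, 17 held one, where chance flags about 1 in 20 groups. The genes share the same libraries, so the groups are not independent and no excess over that rate is read from the count. Only groups with n = 4 were tested. Old_Ctrl, with n = 3, was left out, so Old_Ctrl 3 could not be flagged. Old_CL 3 stood apart upward in Angptl4 (1039 CPM), Atp6v0d2 (44.29), Cd68 (130.9), Lgals3 (443.7), Trem2 (45.01) and Vsig8 (8.649), and downward in Vwf (63.55). Young_CL 4 stood apart downward in Abat (2.971 CPM), Ctsl (146.1), Mrgprg (0.3047), Pltp (109.6) and Wisp2 (1.067). The other stray libraries were Young_Ctrl 2 for Fkbp5 (156.8 CPM), Young_Ctrl 1 for Mrgprg (7.358) and Trem2 (4.104), Young_CL 3 for Gldc (9.157) and Young_CL 1 for Mical2 (15.32).

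Among the 48 named members, the only ones examined for this, 4 crossed over. In these every CL library lay above every vehicle library at 12 months and below every vehicle library at 2 months. The age term under CL favours a low Young_CL and a high Old_CL level, and the share of all genes with this shape was not computed. The ratio of the CL mean to the vehicle mean at 12 months was 2.753 for Abat, 1.719 for Acta2, 1.997 for Bcat1 and 1.807 for Prelp. At 2 months it was 0.441, 0.554, 0.644 and 0.379 in that order. The difference between the ages was not tested.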

How the results depend on the processing

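The number of genes that met the terms moved with the scaling and the thresholds: 171 with TMM library sizes (112 shared with the 113), 291 with ratios of at least 1.5, 38 with ratios of at least 3 and 201 without the 5 muscle-rich libraries (94 shared). With each library left out it ran from 98 to 141. Leaving out a library in turn gave 12 to 22 members that rose and 11 to 17 that fell with CL at 2 months, and 22 to 36 and 7 to 33 at 12 months. The extremes of the falls at 12 months were 33 without Old_Ctrl 3 and 7 without Old_Ctrl 4. Without the muscle-rich libraries 10 rose and 22 fell at 2 months, and 33 fell at 12 months. With Old_CL 1, 2 and 4 summed, 4 fell at 12 months. Hspb7 reversed at 2 months, from 2.87 to -0.83, without the muscle-rich libraries. The cause was not tested. Other settings kept these counts within 1.5 times, upper-quartile factors among them (14 rises and 17 falls at 2 months, 27 and 15 at 12 months). With the replicate block 15 rose and 15 fell at 2 months, and 29 rose and 10 fell at 12 months. Under the block 4 instead of 7 immune members fell at 12 months, and Spp1 at 12 months (-1.61, adjusted p = 0.0639) lost its call among the named members. Low young counts limit the ratios of Vsig8, F7, Lipf and Rnf128.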
